A study of Mus musculus with 28 samples.

Results

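The genes of prostaglandin and leukotriene synthesis were followed through RNA sequencing of mouse bone marrow-derived macrophages, the macrophages that grow out of marrow cells in a medium that carries macrophage growth factor. These are 10 genes listed by name (Pla2g4a, Ptgs1, Ptgs2, Ptges, Ptges2, Ptges3, Alox5, Alox5ap, Lta4h and Ltc4s), and each matched 1 of the 36806 genes in all 6 deposited tables. The study asked what loss of chromatin-bound regulators of transcription does to macrophage RNA before and after lipopolysaccharide (LPS, a bacterial cell wall component, 10 ng/ml). All cells came from FVB/Hsd mice, were infected with a retroviral vector, selected with puromycin and taken on day 7 of differentiation. The knockdown cells carried sh1137 (a single hairpin against Wdr82), hairpins against Set1a together with Set1b, or a hairpin against Pnuts. The control cells carried either the retroviral vector LMP, for which the labels name no hairpin, or a scrambled hairpin. RNA was polyA-selected, or it was the RNA that took up 4-thiouridine (4sU) over the last 45 min of culture, which is mostly newly made.

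The unstranded 4sU set compared sh1137 with LMP cells that were untreated or had 45 min, 2 h or 4 h of LPS. The stranded 4sU set compared sh1137 with LMP cells, untreated or after 1 h of LPS, and the polyA set, unstranded as well, did so for untreated cells and 4 h of LPS. The DRB set, of stranded 4sU RNA, compared sh1137 with scrambled cells after 45 min of LPS, with or without DRB, an inhibitor of elongation by RNA polymerase II, whose dose and timing are not given in the sources used. The Set1a+Set1b set and the Pnuts set compared their hairpins with the scrambled one in stranded 4sU RNA of untreated cells and after 45 min of LPS. Where LMP was the control, the effect of the hairpin target cannot be told apart from that of carrying any hairpin. Each condition had 1 library in its set, 28 libraries in all, so a single pair of libraries has no replicate check. In bulk RNA, fewer cells that express a gene and less RNA per cell cannot be told apart.

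Prostaglandins and leukotrienes are lipid mediators made from arachidonic acid. Cytosolic phospholipase A2 (Pla2g4a) frees that fatty acid from membranes, the cyclooxygenases (Ptgs1, made in resting cells, and Ptgs2, induced in inflammation) turn it into prostaglandin H2, and prostaglandin E synthases (Ptges, Ptges2, Ptges3) turn this into prostaglandin E2. On the other arm, 5-lipoxygenase (Alox5) with its membrane partner FLAP (Alox5ap) makes leukotriene A4, which Lta4h converts to leukotriene B4 and Ltc4s to leukotriene C4. Macrophages hold both arms, and LPS is a classical inducer of Ptgs2 and Ptges in them.

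Promoters are shown for 3 genes the results turn on, Ptgs2 and Ptges for LPS and Ptgs1 for sh1137, since 4sU RNA is mostly newly made. The sequences are the 250 bases upstream of the RefSeq start in the GRCm38.p6 build, written 5′ to 3′ on the gene's strand. Capitals mark matches, on either strand, to short motifs. The kappaB-type motif was read as GGG, then any 5 bases, then a pair of C. The C/EBP-type motif was TTNNGCAA. The GC box was read as GGGCGG, the site of AP-1 proteins as TGANTCA, and the core of a cAMP response element as ACGTCA. For the E-box the letters were CACGTG, for the TATA box they were TATAAA, and for ETS-type factors they were GAGGAA.
Ptgs2, chr1:150099781-150100030, plus strand: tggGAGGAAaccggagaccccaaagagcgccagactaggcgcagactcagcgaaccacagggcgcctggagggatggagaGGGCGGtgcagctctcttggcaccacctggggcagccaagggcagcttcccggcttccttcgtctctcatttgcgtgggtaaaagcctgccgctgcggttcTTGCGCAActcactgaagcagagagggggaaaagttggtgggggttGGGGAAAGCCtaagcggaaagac
Ptges, chr2:30903298-30903547, minus strand: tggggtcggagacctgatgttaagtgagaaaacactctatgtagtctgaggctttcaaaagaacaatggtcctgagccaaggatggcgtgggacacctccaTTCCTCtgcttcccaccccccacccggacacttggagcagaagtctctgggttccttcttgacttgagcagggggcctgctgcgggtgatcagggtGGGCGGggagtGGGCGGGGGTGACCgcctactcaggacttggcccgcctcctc
Ptgs1, chr2:36230176-36230425, plus strand: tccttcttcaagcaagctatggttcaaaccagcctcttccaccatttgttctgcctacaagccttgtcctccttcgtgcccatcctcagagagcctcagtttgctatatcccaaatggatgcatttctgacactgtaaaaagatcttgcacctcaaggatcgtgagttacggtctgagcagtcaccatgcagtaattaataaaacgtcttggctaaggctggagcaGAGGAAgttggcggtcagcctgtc

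The Ptgs2 stretch held a kappaB-type match that begins at base -23 and a C/EBP-type match at base -69, counted from the start site. The Ptges stretch held a kappaB-type match at base -38 that overlaps a GC box, and a further GC box at base -53. The TTCCTC in capitals farther upstream is the ETS-type motif read on the other strand. In the printed Ptgs1 stretch the ETS-type letters matched at base -24, and a kappaB-type match began 28 bases downstream of the start, outside it. Such matches are common. Of 32851 RefSeq windows of 300 bases (250 upstream, 50 downstream), 50.8% held the kappaB-type letters, 35.7% a GC box, 28.3% the ETS-type letters and 10.8% the C/EBP-type letters. A cAMP response type match and an E-box matched at bases 13 and 17 downstream of the Ptgs2 start, outside the printed stretch, and occur in 7.51% and 7.15% of windows. The AP-1 letters and the TATA box, in 7.81% and 13.6% of windows, matched in none of these 3. The upstream stretches of Ptgs2 and Ptges had 61.6% and 59.6% G and C, and that of Ptgs1 48%, beside a median of 52.4% over all windows.

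Between 11533 and 13799 genes reached 1 FPKM per library, a unit that divides sequenced fragments by transcript length and library size. The files hold no read counts, so depth is unknown. The steps between low values put the ratio of the deepest to the shallowest library of a set at about 1.60 (Set1a+Set1b) to 2.36 (unstranded 4sU). That is a rough estimate from the commonest ratio among low values, which as few as 85 genes shared in the polyA set. How libraries were scaled is not known. Wdr82, the sh1137 target, was lower in all 10 sh1137 pairs, for example 3.71 FPKM in sh1137 cells and 16.8 in LMP cells in untreated polyA RNA. Ppp1r10, which encodes PNUTS, was 144 and 332 FPKM in the untreated and LPS libraries labelled Pnuts sh, against 89.5 and 203 in scrambled cells, so directions from the libraries labelled Pnuts sh are given with that limit. In the Set1a+Set1b set, neither Setd1a nor Setd1b was 2-fold lower, so directions from that set are given with that limit too. Macrophage markers were present throughout, with 9 or 10 of 10 at 1 FPKM or more, and Lyz2 was listed at 0 in 3 libraries.

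Mast cells, basophils, eosinophils, neutrophils and dendritic cells also use the leukotriene arm, so their markers were read beside it. Of 10 mast cell and basophil markers, 0 or 1 reached 1 FPKM in any library. Their summed level was 0.379 to 6.62 FPKM in knockdown and 0.0929 to 8.33 in control libraries, and the protease genes Tpsb2, Mcpt4 and Prss34 were listed at 0 in all 28. Of 5 eosinophil markers, 0 or 1 reached 1 FPKM. Their sum was 0.101 to 10.4 FPKM (median 3.58) in knockdown and 0 to 1.96 (median 0.398) in control libraries, and it was nearly all Ccr3, since Epx, the eosinophil peroxidase, stayed at or below 0.174 FPKM. The eosinophil sum was higher in the knockdown library in 14 of 14 pairs. So was the sum of 6 dendritic cell markers, at 11.8 to 102 FPKM in knockdown and 6.45 to 44.4 in control libraries, with 1 to 4 and 1 to 3 of the 6 at 1 FPKM or more. Most of it was the MHC class II gene H2-Ab1, and Flt3 stayed at or below 0.293 FPKM. Zbtb46 had medians of 1.01 FPKM in knockdown and 0.554 in control libraries, and Itgax 1.14 and 0.793. Ccr7 had medians of 0.337 and 0.221 FPKM, but its highest value was in a control library. The sum of 10 neutrophil markers was 4.74 to 85.7 FPKM in knockdown and 3.91 to 61.9 in control libraries, higher in 8 pairs and lower in 6, with 1 to 6 and 1 to 5 of the 10 at 1 FPKM or more. It was 33.3 and 39.5 FPKM in Set1a+Set1b sh cells (untreated and 45 min), against 8.08 and 11.5 in scrambled cells. S100a8 and S100a9 made up most of it. Ngp, Mpo and Camp reached 1 FPKM in 17, 15 and 14 of 28 libraries, at up to 6.27, 3.16 and 5.52 FPKM. Ltf did so in 1 library and Elane in 0, and Ly6g was listed at 0 in 22 of 28. Platelets use Ptgs1. Of 7 platelet markers, 1 to 3 reached 1 FPKM in knockdown and 1 or 2 in control libraries, with sums of 67.8 to 247 FPKM and 38.4 to 141 FPKM. That sum was nearly all Pf4, and it was higher in the knockdown library in 12 of 14 pairs and lower in 2. Ppbp had a median of 2.20 FPKM in knockdown (0.801 to 6.04) and 0.247 in control libraries (0 to 0.952). Itga2b had medians of 0.669 and 0.833 FPKM, and Gp1bb was listed at 0 in all 28 libraries. The part of these cells in the member values was not tested.

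In untreated control cells the FLAP gene Alox5ap was the most abundant of the 10, with a median of 201 FPKM over 5 libraries and a range of 117 to 364, above the highest value of any other member. The phospholipase gene Pla2g4a followed at a median of 42.6 (11.1 to 68.6), then the co-chaperone-type synthase Ptges3 at 28 (20.1 to 41.6). Ptgs1 at 13.6 (8.02 to 24.4), Lta4h at 13.6 (10.2 to 23.1) and Alox5 at 11.6 (7.21 to 36.7) overlapped with one another and with Pla2g4a. Ptges2, a membrane-associated synthase, had 6.01 FPKM (3.01 to 7.02). The lowest were Ptgs2 at 2.34 (0.962 to 5.75), Ltc4s at 2.14 (1.47 to 16.8) and Ptges at 0.937 (0.822 to 1.47), whose ranges also overlap. The sets were normalised separately, so these ranges span differences between sets as well as between cultures. The highest Alox5 and Ltc4s values, 36.7 and 16.8 FPKM, both came from polyA RNA.

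The main question was what the knockdowns did to the 10 genes. Ptgs1, Pla2g4a and Alox5 were higher in the knockdown library in 14 of 14 pairs, and Ltc4s in 13 of 14, whereas Alox5ap was lower in 13 of 14. Of 10252 genes tested in every pair, 1.99% were higher in all 14, 5.54% were higher in at least 13 and 6.1% were lower in at least 13. Without the Pnuts set, the same 3 genes were higher in 12 of 12 pairs, as were 2.94% of genes, and with sh1137 alone in 10 of 10, as were 4.53% of genes. Ratios were taken within a set as log2((FPKM + 1)/(FPKM + 1)), for genes at 1 FPKM or more in either library. On that scale 19 of 137 tested member and pair combinations were at least 2-fold higher and 2 were at least 2-fold lower, against 5.48% and 3.32% over all genes. The median of the 10 log2 ratios ran from 0.02 to 0.50 over the pairs, beside -0.10 to 0.09 for the median of all genes. Ltc4s contributed 8 of the 19, Ptgs1 7, Alox5 2, and Pla2g4a and Ptges 1 each.

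**Figure D1:**
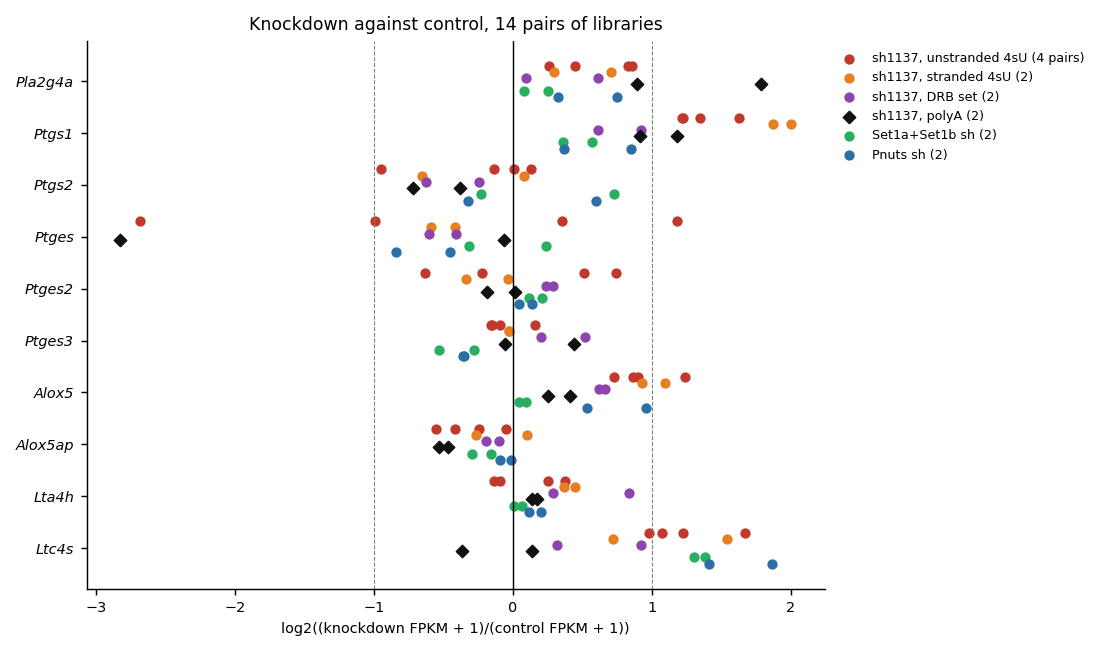
Log2 ratio of knockdown over control FPKM (pseudocount 1, x axis) for each of the 10 genes (rows) in 14 pairs of libraries, coloured by set. Dashed lines mark 2-fold. All points of Ptgs1, Pla2g4a and Alox5 lie right of 0, all but 1 of Ltc4s do, and the 2 lowest points of the plot, near -2.7 and -2.8, are Ptges at 4 h of LPS.

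Ptgs1, the resting-state cyclooxygenase (ENSMUSG00000047250, mm9 chr2:36085945-36107792), differed most steadily. In unstranded 4sU RNA it had 37.8, 23.2, 9.53 and 7.49 FPKM in sh1137 cells (untreated, 45 min, 2 h and 4 h of LPS), against 11.6, 8.52, 3.53 and 2.63 FPKM in LMP cells at the same times. The sh1137 value was the higher at each time, by 1.22 to 1.63 on the log2 scale. In stranded 4sU RNA it had 52.8 FPKM (deposited bounds 26.2 to 79.2) in untreated sh1137 cells and 13.6 FPKM (6.12 to 21.0) in LMP cells, and 22.5 (10.6 to 34.2) in sh1137 and 4.85 (1.74 to 7.91) in LMP cells after 1 h of LPS. These were the only 2 knockdown pairs of any member with bounds that did not overlap, against 0.911% of gene and pair combinations over all genes. In polyA RNA, Ptgs1 had 16.0 FPKM in untreated sh1137 cells and 8.02 in LMP cells, and 11 against 4.28 after 4 h of LPS. In the DRB set the gap was 0.61 log2 with DRB, at 18.4 FPKM in sh1137 and 11.7 in scrambled cells, and 0.92 without, at 11.5 and 5.58. With the other hairpins the 4 log2 ratios ran from 0.36 to 0.85, against 0.61 to 2.00 over the 10 sh1137 pairs. Ptgs1 had 36.8 and 26.1 FPKM in Set1a+Set1b sh cells (untreated and 45 min), against 24.4 and 20.1 in scrambled cells, and 28.2 and 34.4 FPKM in the libraries labelled Pnuts sh, against 21.6 and 18.6 in scrambled cells.

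Pla2g4a (ENSMUSG00000056220, mm9 chr1:151676747-151808420) lies on the same chromosome as Ptgs2, 138833 bases away. Its locus also holds the 5S rRNA-type gene n-R5s219. In unstranded 4sU RNA it had 35.6, 38, 30.0 and 131 FPKM in sh1137 cells and 25.9, 31.5, 16.1 and 73.5 FPKM in LMP cells over the 4 times. The sh1137 values were higher throughout, by 0.26 to 0.86 log2, so none of these pairs reached 2-fold. The widest gap was in untreated polyA RNA, with 40.8 FPKM in sh1137 cells and 11.1 in LMP cells (log2 1.79). With the Set1a+Set1b hairpins the log2 ratios were 0.08 and 0.25, the smallest of its 14 being 0.08.

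Ptgs2 (ENSMUSG00000032487, mm9 chr1:151947253-151955140), the inducible cyclooxygenase, showed no common direction. It was higher in 5 pairs and lower in 9, and no pair reached 2-fold. Of these 14 pairs 13 were tested. The untreated unstranded pair, at 0.785 FPKM in sh1137 and 0.962 in LMP cells, was under 1 FPKM in both libraries. After 4 h of LPS it had 655 FPKM in sh1137 cells and 1265 in LMP cells in 4sU RNA (log2 -0.95), with deposited bounds that begin at 0 in both libraries. In polyA RNA at 4 h the values were 222 FPKM in sh1137 cells and 289 in LMP cells. At 45 min of LPS, 245 FPKM in Set1a+Set1b sh cells stood against 148 in scrambled cells, and 185 FPKM in the libraries labelled Pnuts sh against 122.

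Ptges (ENSMUSG00000050737, mm9 chr2:30744990-30785383, a locus shared with Gm13400) encodes the inducible microsomal prostaglandin E synthase and kept no single direction over the LPS course. In unstranded 4sU RNA it had 1.33, 3.52, 7.09 and 11.1 FPKM in sh1137 cells, against 0.822, 0.994, 15.0 and 76.5 FPKM in LMP cells. The sh1137 value was higher in untreated cells and at 45 min (log2 0.36 and 1.18) and lower at 2 h and 4 h (log2 -0.99 and -2.68). In polyA RNA it had 1.13 FPKM in untreated sh1137 cells and 1.22 in LMP cells, and 9.81 in sh1137 and 75.5 in LMP cells at 4 h (log2 -2.82). At 4 h the gap was thus of similar size in newly made and in polyA RNA. The deposited bounds overlapped in both, for example in polyA at 2.58 to 17.0 FPKM in sh1137 cells and 15.6 to 135 in LMP cells. Ptges was 1 of 79 genes at least 2-fold lower at 4 h in both RNA types, of 11639 tested in both (0.679%). In the other sets, which ended at 45 min or 1 h, no Ptges value exceeded 3.77 FPKM.

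The other prostaglandin E synthases stayed close to their controls. Ptges2 (ENSMUSG00000026820, mm9 chr2:32251415-32258259) was higher in 9 pairs and lower in 5, between -0.63 and 0.74 log2. Ptges3 (ENSMUSG00000071072, mm9 chr10:127496009-127566359), also known as the HSP90 co-chaperone p23, was higher in 4 and lower in 10, between -0.53 and 0.52. Its locus also holds Atp5b, Baz2a, SNORD59 and Mir677, so reads of overlapping genes may be mixed. Median centring turns 1 knockdown ratio near 0 of each of Ptgs2, Ptges3 and Lta4h to the other side.

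On the leukotriene arm, Alox5 (ENSMUSG00000025701, mm9 chr6:116360094-116411196), the 5-lipoxygenase gene, had 12.6, 14.3, 12.1 and 8.75 FPKM in sh1137 cells and 7.21, 7.21, 4.58 and 4.35 FPKM in LMP cells in unstranded 4sU RNA. In stranded 4sU RNA it had 25.9 and 20.3 FPKM in sh1137 cells (untreated and 1 h), against 11.6 and 10.1 in LMP cells. The gap was narrower in polyA RNA, with 49.3 FPKM in untreated sh1137 cells against 36.7 in LMP cells, and 45.8 against 38.3 at 4 h. With the Set1a+Set1b hairpins it was 0.04 and 0.09 log2, close to none. In the libraries labelled Pnuts sh, Alox5 had 19.1 and 16.6 FPKM (untreated and 45 min), against 9.33 and 11.1 in scrambled cells (limma 0.75 ± 0.16 log2, adjusted p = 0.0877).

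Ltc4s (ENSMUSG00000020377, mm9 chr11:50049970-50105838), the leukotriene C4 synthase gene, had 5.00, 7.17, 4.89 and 4.99 FPKM in sh1137 cells and 1.57, 3.14, 1.81 and 0.887 FPKM in LMP cells in unstranded 4sU RNA. It was also past 2-fold in both pairs of the other hairpins. It had 14.4 and 12.7 FPKM in Set1a+Set1b sh cells (untreated and 45 min), against 5.25 and 4.26 in scrambled cells, and 10.4 and 9.77 FPKM in the libraries labelled Pnuts sh, against 2.14 and 3.04 in scrambled cells. Each of the 3 kinds of hairpin thus had pairs with Ltc4s past 2-fold. PolyA RNA did not show this gap, with 12.8 FPKM in untreated sh1137 cells and 16.8 in LMP cells, and 11.2 against 10.1 at 4 h. The locus holds Maml1 and Gm16641 as well, so in unstranded libraries the origin of its reads is less certain. Its deposited lower bound was 0 in 26 of the 28 libraries.

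Alox5ap (ENSMUSG00000060063, mm9 chr5:150076633-150099621, with n-R5s180 in its locus) had 98.4, 105, 89.5 and 79.2 FPKM in sh1137 cells and 117, 141, 131 and 81.7 FPKM in LMP cells in unstranded 4sU RNA. In polyA RNA it had 263 and 262 FPKM in sh1137 cells (untreated and 4 h) and 364 and 380.2 FPKM in LMP cells. The only pair with the opposite direction was stranded 4sU RNA at 1 h, with 247 FPKM in sh1137 and 230 in LMP cells. Lta4h (ENSMUSG00000015889, mm9 chr10:92916140-92947641), the leukotriene A4 hydrolase gene, was higher in 12 pairs and lower in 2. Its ratios ran from -0.13 to 0.83 log2, the largest being 25.3 FPKM in sh1137 and 13.7 in scrambled cells given DRB.

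A test over libraries was possible in the unstranded 4sU set, where a limma fit of vector and LPS time over its 8 libraries treats the 4 times as repeats. Its p-values measure how the vector difference varies between times, not between cultures. Of the 10 genes, 4 rose with sh1137 and 0 fell at an adjusted p under 0.05, against 6.59% of 14886 genes that rose and 6.89% that fell. Ptgs1 rose by 1.36 ± 0.10 log2 (SE, limma adjusted p = 0.00781), Ltc4s by 1.24 ± 0.15 (adjusted p = 0.0144), Alox5 by 0.93 ± 0.11 (adjusted p = 0.0141) and Pla2g4a by 0.60 ± 0.13 (adjusted p = 0.0415). These 4 stand on both arms, with the phospholipase that feeds them. Of those that missed the threshold, Alox5ap had -0.31 ± 0.10 (limma adjusted p = 0.0951), Ptgs2 -0.24 ± 0.19 (adjusted p = 0.439) and Ptges -0.53 ± 0.65 (adjusted p = 0.605), the last with the widest error with sh1137 values above LMP at early and below at late times.

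The calls depend on the filter and on which times are in the fit, least on the 4 h libraries. With no filter on FPKM, which lets genes near 0 into the fit, only Ptgs1 remained called (limma adjusted p = 0.0494). Pla2g4a missed the threshold in limma without a trend (adjusted p = 0.0568), and Ltc4s did not pass a filter of 5 FPKM. Without the 45 min libraries 0 of the 10 remained called, and without the untreated or the 2 h libraries only Ptgs1 did, with limma adjusted p of 0.0354 and 0.0368. Without the 4 h libraries, 3 did (Ptgs1, Alox5 and Ltc4s). In these 4 fits the adjusted p ran from 0.0239 to 0.0533 for Ptgs1, from 0.0395 to 0.0701 for Alox5, from 0.0321 to 0.0621 for Ltc4s and from 0.0764 to 0.117 for Pla2g4a. All genes called fell to between 54 and 978 with a time left out, from 2006 with all 8 libraries.

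The other sets hold 4 libraries each and leave 1 residual degree of freedom. In stranded 4sU RNA, limma called Ptgs1 (1.94 ± 0.14 log2, adjusted p = 0.0130) and Alox5 (1.01 ± 0.15, adjusted p = 0.0342) higher with sh1137, as it did 4.62% of genes. In the libraries labelled Pnuts sh it called Ltc4s (1.64 ± 0.19, adjusted p = 0.0490) higher, as it did 1.54% of genes, and this call was lost on median centring (adjusted p = 0.0563). Centring also changed the split over all genes of that set to 40 higher and 14 lower, from 198 and 124. Over the polyA set it gave 65 higher and 64 lower, against 28 and 42. For the vector effect in the polyA, DRB and Set1a+Set1b sets limma called 0 of the 10, beside 0.577%, 0.984% and 0.179% of genes. At an unadjusted p under 0.05, limma counted 4 of the 10 in polyA, 4 in DRB and 3 in Set1a+Set1b, beside 2523 of 12135, 2032 of 12905 and 3174 of 12882 genes. Ptgs1 was among them each time, at 1.05 ± 0.15 (limma adjusted p = 0.0859) in polyA, 0.77 ± 0.20 (adjusted p = 0.140) in DRB and 0.47 ± 0.10 (adjusted p = 0.134) in Set1a+Set1b. The others had mixed directions. In polyA, Pla2g4a (1.34 log2) was higher, while Ptgs2 (-0.55) and Alox5ap (-0.50) were lower. In DRB, Alox5 (0.64), Ltc4s (0.62) and Lta4h (0.56) were higher. In Set1a+Set1b, Ltc4s (1.34) was higher and Ptges3 (-0.40) lower, and the count of 3 is near the share over all genes.

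**Figure D2:**
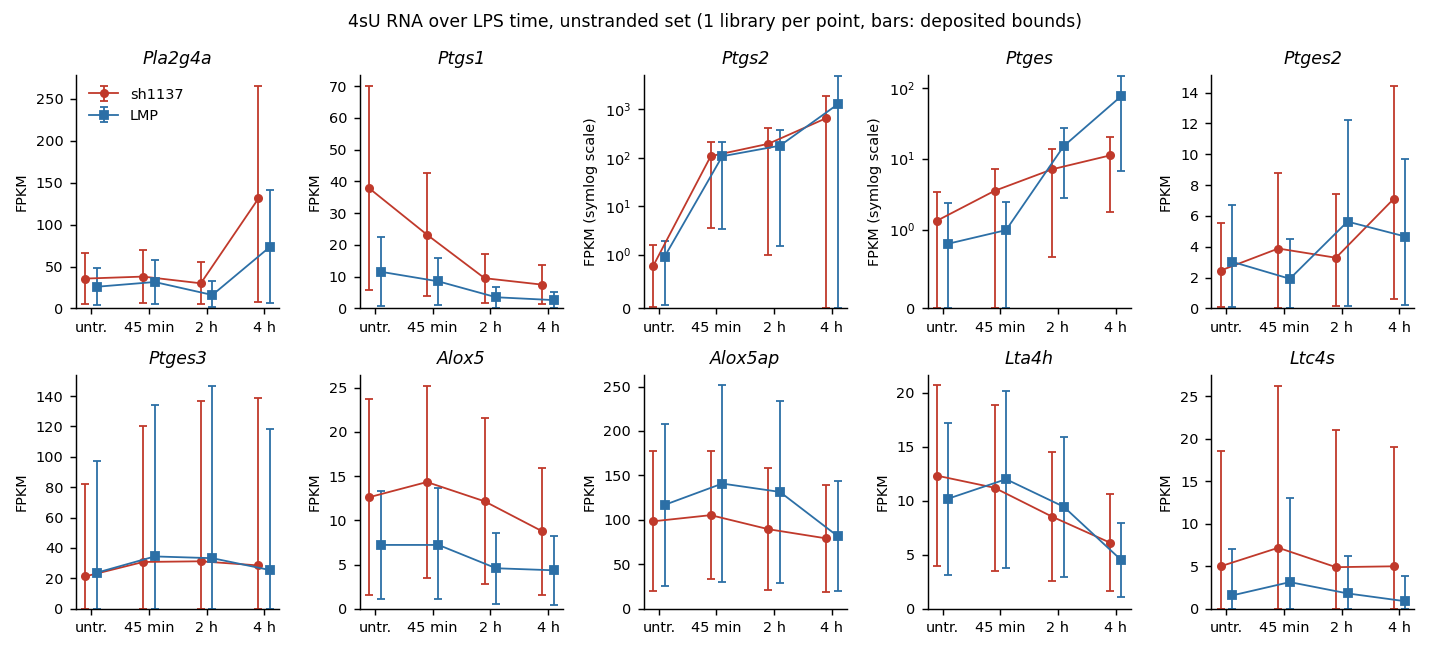
FPKM (y axis) of the 10 genes in 4sU RNA of the unstranded set against LPS time (x axis), sh1137 in red circles and LMP in blue squares, 1 library per point with the deposited bounds as bars. Ptgs2 and Ptges use a symlog axis, linear below 1. Ptgs1, Alox5 and Ltc4s keep the red line above the blue at all 4 times, while the lines of Ptges cross between 45 min and 2 h.

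The next question was how LPS moved the 10 genes. Ptgs2 was at least 2-fold higher after LPS in 14 of 14 pairs, Ptges in 8, Pla2g4a in 3 and Ptges2 in 1, while Ptgs1 was at least 2-fold lower in 6 and Lta4h in 1. These 26 higher and 7 lower combinations of 138 tested compare with 10.8% and 6.2% over all genes. Ptgs2 and Ptges alone had deposited bounds that did not overlap between LPS and untreated cells, in 10 and 4 pairs, against 1.96% of combinations over all genes. The LPS pairs of the unstranded set share 1 untreated library per vector.

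In the unstranded 4sU fit, each LPS value is an average over sh1137 and LMP cells. Its p-value measures how the LPS response varies between these vectors, not between cultures. LPS for 45 min raised Ptgs2 alone of the 10, by 5.86 ± 0.27 log2 (limma adjusted p = 0.000915), as 5.46% of genes rose. At 2 h, Ptgs2 (6.64 ± 0.27, adjusted p = 0.000491) and Ptges3 (0.50 ± 0.12, adjusted p = 0.0330) rose, as did 18% of genes, and Ptgs1 fell by 1.68 ± 0.15 (adjusted p = 0.00245), as did 9.71% of genes. At 4 h, 3 rose and 3 fell, against 29.7% and 16.8% of genes. The counts at 2 h, and of those that rose at 4 h, are near the shares over all genes. Ptgs2 rose by 8.93 ± 0.27 (limma adjusted p = 0.000140), Ptges by 3.89 ± 0.91 (adjusted p = 0.0206) and Pla2g4a by 1.66 ± 0.18 (adjusted p = 0.00157). The Ptges value averages 2.37 in sh1137 and 5.41 in LMP cells. The median gene moved by 0.16 at 4 h, less than Ptgs2, Ptges and Pla2g4a. Ptgs1 fell by 1.99 ± 0.15 (limma adjusted p = 0.000536), Lta4h by 0.96 ± 0.17 (adjusted p = 0.00825) and Alox5 by 0.55 ± 0.16 (adjusted p = 0.0381). With the median gene centred out, Alox5ap passed the threshold at 4 h as well (-0.52, limma adjusted p = 0.0334). Without the 45 min libraries Ptges3 at 2 h and Alox5 at 4 h missed the threshold (limma adjusted p = 0.0562 and 0.0657). Without the 4 h libraries Ptges at 2 h passed it (limma adjusted p = 0.0391, against 0.106 with them).

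Ptgs2 itself was at 0.785, 108, 194 and 655 FPKM in sh1137 cells and at 0.962, 107, 177 and 1265 FPKM in LMP cells over untreated, 45 min, 2 h and 4 h. It thus started near the lower end of the 10 and was the most abundant of them with both vectors at 2 h. The stranded set at 1 h gave 22.9 FPKM in sh1137 cells against 3.61 untreated, and 36.6 in LMP cells against 3.36 untreated, a smaller step than at 45 min in the unstranded set. Within the unstranded set, Pla2g4a was highest at 4 h, with 131 FPKM in sh1137 and 73.5 in LMP cells, after 30.0 and 16.1 at 2 h.

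In the 4-library sets, limma called Ptgs2 higher with LPS in stranded 4sU RNA (2.74 ± 0.23 log2, adjusted p = 0.0154), polyA RNA (6.61 ± 0.15, adjusted p = 0.000758), the Set1a+Set1b set (4.94 ± 0.27, adjusted p = 0.0140) and the Pnuts set (5.73 ± 0.26, adjusted p = 0.00464). The shares of genes called higher there were 1.4%, 28.4%, 5.32% and 5.02%. Ptgs1 was called lower at 1 h in stranded 4sU RNA (-1.26 ± 0.14, limma adjusted p = 0.0338), as were 0.453% of genes. At 4 h in polyA RNA limma called 4 of the 10 higher and 1 lower, with 15.2% of genes lower. Beside Ptgs2 these were Ptges (3.72 ± 0.69, limma adjusted p = 0.0181), Pla2g4a (1.12 ± 0.25, adjusted p = 0.0282), Ptges2 (0.57 ± 0.15, adjusted p = 0.0404) and, lower, Ptgs1 (-0.64 ± 0.15, adjusted p = 0.0341). These values too are averages over the vectors, for Ptges of 2.34 in sh1137 and 5.10 in LMP cells. The median gene lay at 0.13 in sh1137 and 0.17 in LMP cells in polyA RNA. With that centred out, 3 members were called higher and 2 lower. Ptges2 then missed the threshold (limma adjusted p = 0.0893) and Lta4h passed it (-0.47, adjusted p = 0.0404), while genes called over the set became 2778 higher and 2693 lower, against 3451 and 1846.

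Across the 14 LPS pairs Ptges3 was higher in 14, by 0.09 to 0.80 log2 and never 2-fold, and the smallest of these turned to -0.09 when the median gene was centred out. Ptges was also higher in 14 of 14, of which 2 were under 1 FPKM in both libraries and so not tested. Ptgs1 was lower in 13 of 14. Of 10775 genes tested in all these pairs, 11.1% were higher in 14 and 7.98% were lower in at least 13. The exception was the libraries labelled Pnuts sh, with 34.4 FPKM at 45 min of LPS and 28.2 untreated. Alox5ap and Ltc4s never reached 2-fold with LPS, and ran from -0.51 to 0.30 and from -0.80 to 0.69 log2.

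**Figure D3:**
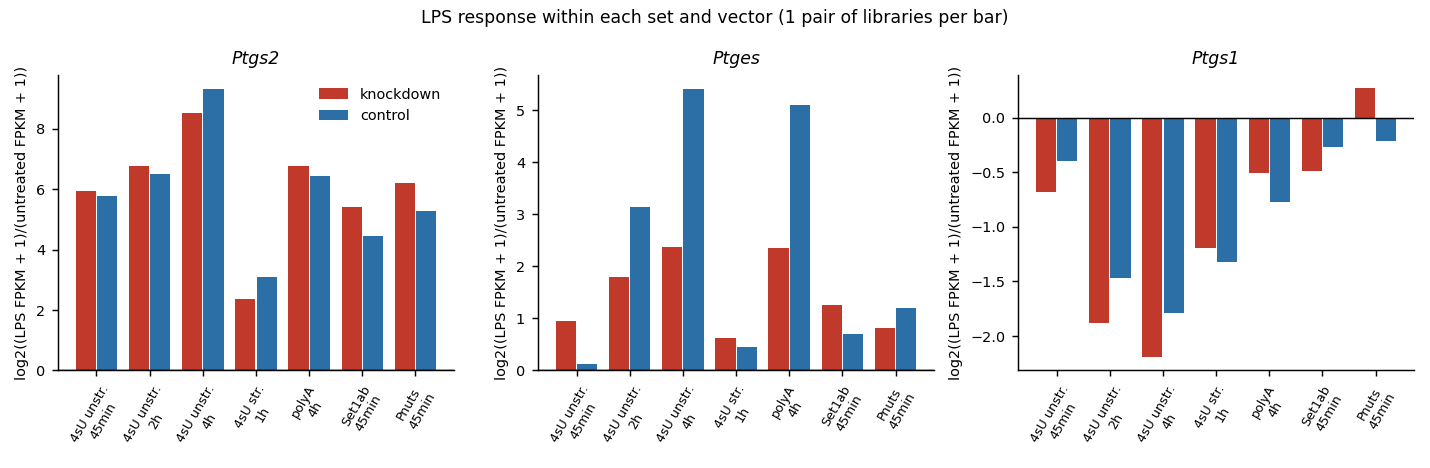
LPS response, as log2 of LPS over untreated FPKM (pseudocount 1, y axis), of Ptgs2, Ptges and Ptgs1 in each set and LPS time (x axis), knockdown in red left of control in blue, 1 pair of libraries per bar. At 4 h (4sU, then polyA RNA) the Ptges bars are 2.37 and 2.34 in sh1137 cells against 5.41 and 5.10 in LMP cells. The Ptgs2 bars are 8.52 and 6.79 in sh1137 cells against 9.33 and 6.44 in LMP cells.

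Set against one another, the LPS responses of Ptges and Ptgs2 at 4 h parted with sh1137. The log2 response of Ptges was 2.37 in sh1137 cells and 5.41 in LMP cells in 4sU RNA, and 2.34 and 5.10 in polyA RNA, a difference of -3.04 and -2.76. That of Ptgs2 was 8.52 in sh1137 and 9.33 in LMP cells in 4sU RNA (difference -0.81), and 6.79 and 6.44 in polyA RNA (difference 0.34). At 45 min Ptges responded by 0.95 in sh1137 and 0.13 in LMP cells. With 1 library per condition the difference between responses was not tested. Pla2g4a also responded less in sh1137 cells in polyA RNA, by 0.68 against 1.57 in LMP cells, but not in 4sU RNA, where it was 1.85 against 1.47.

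In cells with 45 min of LPS, Ptgs2 was lower with DRB. Ptgs2 had 2.73 FPKM with DRB and 18.2 without in sh1137 cells, and 4.76 with and 21.7 without in scrambled cells. The deposited bounds did not overlap in either vector, for example 0.795 to 4.63 with DRB and 7.22 to 29.2 without in sh1137 cells. Ptgs2 was the 1 member at least 2-fold lower with both vectors, as were 11.4% of genes. Pla2g4a, Alox5 and Alox5ap were at least 2-fold higher with both, as were 9.3% of genes. Pla2g4a had 48.9 FPKM with DRB and 21.3 without in sh1137 cells, and 45.8 with and 13.6 without in scrambled cells. Alox5ap had 265 with and 131 without in sh1137 cells, and 302 with and 140 without in scrambled cells. Alox5 had 13 with and 5.80 without in sh1137 cells, and 8.11 with and 3.30 without in scrambled cells.

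**Figure D4:**
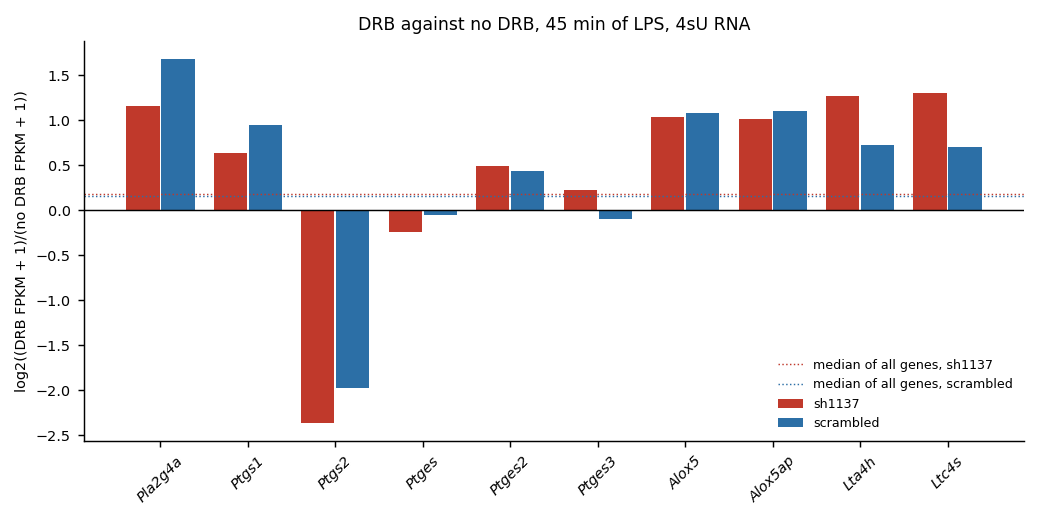
Log2 ratio of DRB over no DRB FPKM (pseudocount 1, y axis) for each gene (x axis) after 45 min of LPS, sh1137 in red left of scrambled in blue. Dotted lines give the median of all genes, 0.18 in sh1137 and 0.16 in scrambled cells. Only the Ptgs2 bars reach far below 0, at -2.37 and -1.98.

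A limma fit over the 4 libraries of the DRB set called 6 of the 10 higher with DRB and 1 lower, against 30.4% and 22.5% of genes. Ptgs2 fell by 2.17 ± 0.21 log2 (limma adjusted p = 0.000432). Higher were Pla2g4a (1.42 ± 0.19, limma adjusted p = 0.00140), Alox5 (1.06 ± 0.20, adjusted p = 0.00524), Alox5ap (1.06 ± 0.14, adjusted p = 0.00147), Ltc4s (1.00 ± 0.26, adjusted p = 0.0154), Lta4h (0.99 ± 0.21, adjusted p = 0.00738) and Ptgs1 (0.79 ± 0.20, adjusted p = 0.0136). All 4 leukotriene genes are among them. FPKM are shares of a library, so a gene can gain share while its RNA amount does not rise, and RNA amounts per cell were not analysed here. Ptges, Ptges2 and Ptges3 missed the threshold. Ptges (-0.15 ± 0.26 log2) was at a low level in this set, where a fall could hardly show.

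Other genes of the pathway were read from a list of 57 (phospholipases, other synthases, receptors, inactivating enzymes and transporters), of which 33 passed the filter of the unstranded fit. With sh1137, limma called 5 higher and 3 lower, where 6.59% and 6.89% of all genes were called, so the count of lower genes is near that share. Pla2g7, a secreted phospholipase that degrades platelet-activating factor, had 39.8, 44.8, 48.2 and 65.5 FPKM in sh1137 cells and 2.03, 4.57, 8.61 and 18.7 FPKM in LMP cells over the 4 times (2.73 ± 0.33 log2, limma adjusted p = 0.0148). In polyA RNA it had 192 FPKM in untreated sh1137 cells against 201 in LMP cells, and 305 against 624 at 4 h, so the direction differed by RNA type. Pla2g6, a calcium-independent phospholipase, had 5.97, 11, 7.50 and 3.75 FPKM in sh1137 cells and 2.15, 3.20, 2.19 and 2.00 FPKM in LMP cells (1.19 ± 0.17, limma adjusted p = 0.0200). It was 2-fold higher in 6 of 10 sh1137 pairs and Pla2g7 in 8. Also higher were Mboat7, which returns arachidonic acid to membranes (0.70 ± 0.12, limma adjusted p = 0.0261), thromboxane synthase Tbxas1 (0.72 ± 0.13, adjusted p = 0.0290) and the microsomal glutathione transferase Mgst1 (1.14 ± 0.23, adjusted p = 0.0377). In polyA RNA Mgst1 had the opposite direction, with 66.0 FPKM in untreated sh1137 cells against 91.5 in LMP cells, and 72.5 against 111 at 4 h. Tbxas1 was level in untreated polyA RNA, with 39.3 FPKM in sh1137 and 39.4 in LMP cells.

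Among the 3 called lower, Cysltr1, a receptor for cysteinyl leukotrienes, had 4.83, 4.48, 4.22 and 5.92 FPKM in sh1137 cells and 7.14, 8.38, 10.8 and 21.3 FPKM in LMP cells (-1.03 ± 0.21, limma adjusted p = 0.0400). Fpr2, the lipoxin and formyl peptide receptor, had 241 FPKM in sh1137 and 656 in LMP cells at 4 h (-1.07 ± 0.21 over all times, limma adjusted p = 0.0346). Dpep2, a dipeptidase that converts leukotriene D4 to leukotriene E4, was lower in all 10 sh1137 pairs (-0.39 ± 0.07, limma adjusted p = 0.0288). Of the most abundant genes of their groups, Hpgds, the haematopoietic prostaglandin D synthase, had 77.8 FPKM in untreated sh1137 and 87.9 in LMP cells (-0.12 ± 0.15, limma adjusted p = 0.617), and Abcc1, an exporter of leukotriene C4, 49.1 and 51.0 FPKM (-0.03 ± 0.08, adjusted p = 0.827). With LPS, limma called 3 of the 33 higher and 0 lower at 45 min, 7 and 4 at 2 h, and 14 and 2 at 4 h. The shares over all genes were 5.46% and 2.37%, 18% and 9.71%, and 29.7% and 16.8%, so the counts at 45 min and 2 h are near them.

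As a description, genes were ranked by the Pearson correlation of their log2(FPKM + 1), centred within each set, with that of 3 members over the 28 libraries. The libraries share LPS times, so a high value mostly says that a gene follows LPS alike, and 8319 genes with a mean of 5 FPKM or more were ranked. Most like Ptgs2 were Il1b (0.983), Pim1 (0.977), Sod2 (0.976), Slc2a6 (0.975) and Irg1 (0.973). Most like Ptges were Acsl1 (0.951), Edn1 (0.937), Zdhhc5 (0.932), Slc7a2 (0.925) and Mmp14 (0.924), of which Acsl1, a long-chain acyl-CoA synthetase, is on the pathway list. Most like Ptgs1 were Entpd4 (0.917), Rcbtb2 (0.908), Appl2 (0.901), Adipor1 (0.894) and Nisch (0.887).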

How the data were processed

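The authors deposited 6 tables of FPKM values with a lower and an upper bound and a status per gene and library, per the file headers. Per the submitters' processing notes, the build was mm9 and the tools were TopHat 1.3.1, Cufflinks 2.1.1 and Cuffdiff 2.1.1. Which annotation was used, how libraries were scaled and what level the bounds have is not given in the sources used here. Ratios of the deposited FPKM were computed within a table as log2((FPKM + 1)/(FPKM + 1)), a pseudocount of 1, which understates the change of low genes. Single pairs were not tested. A gene was read in a pair when it had 1 FPKM or more in either library and status OK in both.

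The fits used limma 3.58.1 (trend) in R 4.3.3 on log2(FPKM + 1), with vector and LPS time or DRB as terms, over genes at 1 FPKM or more in at least 2 libraries, and Benjamini-Hochberg adjustment over all genes at 0.05. The unstranded and the stranded fit were tested on simulated data, and in the stranded one, with 4 libraries, most simulated 2-fold changes were missed, which limits what a missed call in a 4-library set says.

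The members and lists were chosen with earlier results of these data known. All 10 members are named. Of the pathway list, those called in the unstranded fit, those past 2-fold in at least 5 of the 10 sh1137 pairs and the most abundant of each group are named. The list has 59 names, of which 57 are in the tables. Promoter windows are RefSeq's (GRCm38.p6) and were matched by symbol for 9 of the 10 members. Of repeated symbols, the entry with the largest mean was used. The alternatives were pseudocounts of 0.1 and 5, other filters, median centring, limma without trend and leaving out each LPS time. Leaving out the Pnuts set, or all but the sh1137 sets, was added after seeing the data.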

Additional observations from a re-analysis of the deposited data

Results flagged for a closer look

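The Ptges difference between sh1137 and LMP cells had opposite directions at early and late LPS times. It was 1.18 log2 in unstranded 4sU RNA at 45 min (3.52 FPKM in sh1137 and 0.994 in LMP cells), and -2.68 at 4 h in the same set and -2.82 at 4 h in polyA RNA. Each is past 2-fold, and the difference between times was not tested, since each condition has 1 library. The 45 min value rests on levels near 1 FPKM, and the deposited bounds of both 45 min libraries begin at 0.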

How the results depend on the processing

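For sh1137 in the unstranded 4sU set, 4 members were called. With no filter on FPKM, which lets genes near 0 into the fit, 1 was called (196 genes, against 2006). The cause of that loss was not tested. With 1 LPS time left out, 0 to 3 were called. Limma without a trend (Pla2g4a lost) and a filter of 5 FPKM (Ltc4s not in the fit) each left 3. In the Pnuts set the 1 call became 0 with a pseudocount of 0.1 (45 genes called, against 322) and 0 on median centring (54 genes), and the cause was not tested. The 21 member and pair combinations past 2-fold between knockdown and control became 8 with a pseudocount of 5, which shrinks ratios of low genes by construction. They were 29 with a pseudocount of 0.1, 22 on median centring, 19 without the Pnuts set and 17 with sh1137 alone. Over all genes, calls also moved by more than 1.5 times for LPS at 45 min (407 with no filter and 641 without the 2 h libraries, against 1166), for LPS at 2 h (1929 with no filter, against 4121), and for the vector in the DRB set (52 with a pseudocount of 0.1, against 127), the polyA set (124 with a pseudocount of 0.1 and 129 centred, against 70) and the Set1a+Set1b set (10 centred, against 23). No result turned direction among the called ones. No paired analysis was possible because each condition has 1 library and the labels carry no replicate numbers to pair by, while the fits hold LPS time or DRB as a term. Depth is unknown, and the deposited lower bound is 0 in 26 of 28 libraries for Ltc4s, 23 for Ptges3, 9 for Ptges, 3 for Ptges2 and 2 for Ptgs2.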
